A study of Mus musculus with 6 samples.

Results

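The cytochrome P450 family 2 was described in ribosome-bound mRNA of hepatocytes repopulating an injured mouse liver. Its members were the gene symbols of the deposited TPM table that begin with Cyp2 followed by a lower-case letter, with transcripts summed per symbol. The rule took 73 of 35970 symbols, spelled by 163 of 117486 transcripts. Of these, 50 were symbols without a pseudogene suffix and 23 carried the suffix -ps and are given apart. TPM divide a library's reads among transcripts after a correction for their length, so levels can be set side by side between genes. That holds as far as reads were placed on the right transcript.

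The first group was 3 Fah-/-;dCas9 mice injected with the transposon plasmid pkt2-fah-GFPL10a-CRISPRi-Neurl1b, and the second was 3 mice of the same genotype given the plasmid with a non-targeting guide. All 6 mice lacked Fah, which encodes the enzyme that ends tyrosine catabolism, and carried dCas9, which binds DNA beside a guide RNA without cutting and so represses the gene there (CRISPR interference, CRISPRi). All had 7.5 µg/mL nitisinone until a hydrodynamic tail vein injection of 10 µg of plasmid, mixed with the virus AAV8.TBG.PI.Cre, and none afterwards; TBG is a hepatocyte promoter. Livers were collected after 4 weeks, 400 mg was lysed, and ribosomes bearing the GFP-tagged protein L10a were pulled down. The RNA was thus enriched for that of plasmid-bearing cells. The liver still held other cells, and how much of their RNA was carried over is unknown. The sources used here do not state strain, age or sex, and each library was 1 mouse. The p-values therefore measure the spread between mice within this experiment.

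Cytochromes P450 are haem enzymes of the endoplasmic reticulum that insert an oxygen atom into their substrates, with electrons passed on by cytochrome P450 oxidoreductase. Family 2 oxidises drugs, toxins, steroids and fatty acids in the liver, and in rodents its subfamilies have expanded into clusters of near-identical neighbours. Members differ in where along the liver lobule they are made, in their dependence on sex and growth hormone, and in their induction by xenobiotic receptors such as the constitutive androstane receptor.

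Because neighbours resemble each other, sequences that tell them apart are shown first. The coding sequences of Cyp2a4 and Cyp2a5, the pair that holds most of the family's TPM, differed at 23 of 1482 positions. The stretch with the most differences lies at coding positions 596 to 655, with the 4 differing bases in capitals.
Cyp2a4: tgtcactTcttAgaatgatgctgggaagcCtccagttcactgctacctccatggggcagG
Cyp2a5: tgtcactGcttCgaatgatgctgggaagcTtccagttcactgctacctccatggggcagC
Cyp2c40 and Cyp2c69, neighbours on chromosome 19, differed at 31 positions once the longer annotated 5′ end of Cyp2c40 was left out. Their stretch with the most differences, 6 in 60 bases, lies at coding positions 1124 to 1183 of Cyp2c40 and 1037 to 1096 of Cyp2c69.
Cyp2c40: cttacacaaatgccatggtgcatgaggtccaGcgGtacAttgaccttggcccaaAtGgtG
Cyp2c69: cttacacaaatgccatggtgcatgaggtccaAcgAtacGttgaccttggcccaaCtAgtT
Cyp2c54 and Cyp2c50, also neighbours there, differed at 70 of 1470 positions, most densely at 11 positions between coding positions 791 and 850.
Cyp2c54: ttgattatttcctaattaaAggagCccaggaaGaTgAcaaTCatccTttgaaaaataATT
Cyp2c50: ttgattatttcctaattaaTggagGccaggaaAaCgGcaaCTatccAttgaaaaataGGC
These 6 sequences are from the GENCODE vM21 transcript set (GRCm38), which held 160 of the 163 deposited transcripts when the version was ignored. The share of a transcript's 31-base words that no other gene holds, a measure of how well reads can be assigned, was 15.5% in Cyp2c40, 34.1% in Cyp2c69, 41.1% in Cyp2a4, 41.5% in Cyp2a5 and 57.7% in Cyp2c54, against 88.0% in Cyp2f2, 96.5% in Cyp2j5 and 97.0% in Cyp2j6. TPM of single members of the Cyp2a and Cyp2c clusters are therefore uncertain, and sums over a subfamily are given beside them. The Cyp2c sum is mostly Cyp2c29 and Cyp2c70. It therefore cannot show how reads were divided among Cyp2c40, Cyp2c69 and their close neighbours.

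The targeted gene was measured first. Neurl1b, a ubiquitin ligase gene, had 0.295, 0.351 and 0.307 TPM in the CRISPRi mice, against 1.22, 0.897 and 0.688 TPM in the non-targeting mice. The groups did not overlap, at a ratio of means of 0.339 (exact two-sided permutation p = 0.1, the smallest that 3 against 3 allows). Non-targeting mouse 1 bears on many of the results below. Over the tested genes, the log2 values of non-targeting mouse 1 correlated at 0.982 to 0.987 with the CRISPRi mice, against 0.965 and 0.974 with the other non-targeting mice. Without it, 2673 of 10558 genes passed an adjusted p of 0.05 in limma, against 2 of 10598 with it, so results are given with and without it. It was singled out for its likeness to the CRISPRi mice, so leaving it out widens the difference between groups and narrows the spread of the controls by that choice, and an adjusted p without it is a description. Its Neurl1b, the highest of all 6 libraries, goes with its label, and why it lies close to the CRISPRi mice was not tested. The scaling of TPM bears on them too: over all tested genes the log2 fold change had a median of 0.18, and 0.01 after median-of-ratios scaling. In bulk RNA, fewer cells of a type and less RNA per cell cannot be told apart.

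Of the 50 members without the suffix, 33 had a mean of at least 1 TPM and were tested, 14 were lower and 3 (Cyp2c66, Cyp2j7 and Cyp2w1) were listed at 0 in every library. Together the 50 made up 13433, 12584 and 10713 TPM in the CRISPRi mice, against 10840, 9090 and 13052 TPM in the non-targeting mice, and the groups overlapped. Cyp2a5 alone, which encodes the coumarin hydroxylase of mouse liver, supplied 68.6%, 67.0% and 63.8% of the family in the CRISPRi mice, and 62.0%, 48.6% and 68.5% in the non-targeting mice. Without Cyp2a5 the family summed to 4086 ± 183 TPM in CRISPRi and 4301 ± 324 TPM in non-targeting mice (SD, n = 3 each), again with overlap. Of the mean TPM of Cyp2a5, 52.6% lay on a 442-nucleotide model with no annotated start. Its share and the family's total depend on that model. On the longest coding transcripts alone the 50 summed to 8558, 7620 and 6608 TPM in the CRISPRi mice. Cyp2a5 was 4907, 4169 and 3472 TPM of these. In the non-targeting mice the sums were 7132, 5277 and 5939 TPM, with Cyp2a5 at 3646, 1710 and 3008 TPM. The family's total did not separate the groups under either count.

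No member passed an adjusted p of 0.05 in limma over all 10598 genes, where 0.0189% of all genes did, and the lowest adjusted p among the 33 was 0.216. At an unadjusted p below 0.05, 8 of the 33 had less TPM in CRISPRi mice, a share of 24.2% against 3.19% of all tested genes, and 2 had more, 6.06% against 10.1% of all genes. With median-of-ratios scaling 10 had less, where 6.41% of all genes did, and 1 had more, where 6.77% did. Groups without overlap were as frequent: 8 of 33 lay lower in every CRISPRi mouse, against 4.57% of all genes, and 2 lay higher, against 12.5%. After median-of-ratios scaling 11 lay lower, where 8.89% of all genes did, and 0 higher, where 9.84% did. The median log2 fold change of the 33 was -0.12, beside 0.18 over all tested genes. Some of these members share reads with each other, so they are not independent observations. Cyp2c69 reached the filter through the non-targeting group alone and Cyp2s1 through the CRISPRi group alone, so these had to differ, and among the other 31 members 7 had less TPM and 1 more at an unadjusted p below 0.05.

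**Figure D1:**
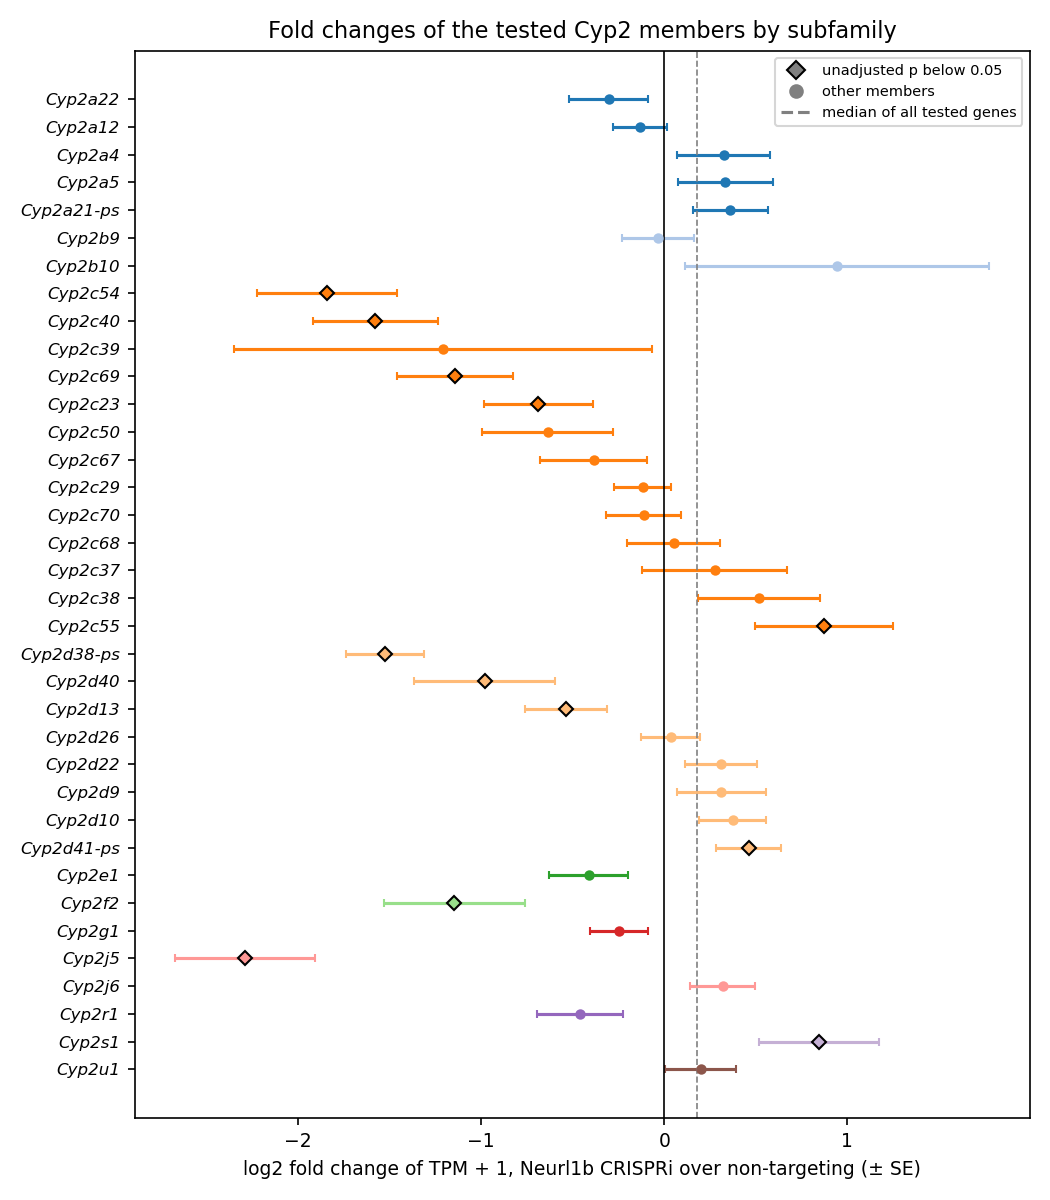
Log2 fold change of TPM + 1, Neurl1b CRISPRi over non-targeting, with its standard error, for the 36 tested members (33 without and 3 with the suffix -ps), grouped and coloured by subfamily. Diamonds mark an unadjusted p below 0.05, and the dashed line is the median of all tested genes, 0.18. Cyp2j5 lies farthest to the left at -2.29, and both directions occur within Cyp2c, Cyp2d and Cyp2j.

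On the scale of log2(TPM + 1), the largest fold change among the tested members was that of Cyp2j5. As a ratio of mean TPM, CRISPRi over non-targeting, Cyp2j5 was at 0.187. Cyp2d38-ps at 0.144 and Cyp2c39 at 0.107 were lower, the last through non-targeting mouse 1 alone. Cyp2j5, an arachidonic acid epoxygenase of liver and kidney, had 9.58, 11.8 and 4.53 TPM in the CRISPRi mice, against 27.7, 65.6 and 45.1 TPM in the non-targeting mice. Every CRISPRi mouse lay below every non-targeting mouse, and non-targeting mouse 1 was the lowest control. Its log2 fold change was -2.29 (SE 0.38, unadjusted p = 0.000258, limma adjusted p = 0.216), and without non-targeting mouse 1 it was -2.61 (SE 0.38, adjusted p = 0.0176). Its paralogue Cyp2j6, in the same cluster on chromosome 4, had 17.3, 18.6 and 18.3 TPM in the CRISPRi mice, against 17.1, 12.03 and 14.1 TPM in the non-targeting mice. Cyp2j6 was thus slightly higher in every CRISPRi mouse, at a log2 fold change of 0.32 (SE 0.18, limma adjusted p = 0.428), but overlapped after median-of-ratios scaling (0.13). The other 6 Cyp2j symbols without the suffix stayed under 1 TPM in every library, so the subfamily sum, 26.9 ± 3.8 TPM in CRISPRi and 60.9 ± 16.4 TPM in non-targeting mice, was set by Cyp2j5, and without it the log2 ratio of the sums was 0.31 instead of -1.18.

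The starts of these neighbours are shown because Cyp2j5 had less TPM in CRISPRi mice and Cyp2j6 did not. Both windows are the 150 bases before the annotated start (RefSeq, GRCm38.p6, minus strand), chr4:96664120-96664269 for Cyp2j5 and chr4:96553652-96553801 for Cyp2j6. Capitals mark a TATAAA match at -128 in the Cyp2j5 window and a CCAAT match at -5 in the Cyp2j6 window, each read on the other strand. For comparison, TATAAA lay at -29 in Cyp2a5 and at -31 in Cyp2e1. Whether either marked match acts in its promoter was not tested.
Cyp2j5: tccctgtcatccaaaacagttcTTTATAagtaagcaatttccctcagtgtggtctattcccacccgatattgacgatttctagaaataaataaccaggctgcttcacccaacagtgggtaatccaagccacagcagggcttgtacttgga
Cyp2j6: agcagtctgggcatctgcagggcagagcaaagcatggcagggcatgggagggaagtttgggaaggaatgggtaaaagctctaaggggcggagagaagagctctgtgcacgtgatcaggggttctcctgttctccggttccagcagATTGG
Over 300-base windows, from 250 before to 50 after the start, the pair were 44.4% identical, while their coding sequences were 78.3% identical. TATAAA on either strand occurred in 13.6% and CCAAT in 37.4% of the 32851 promoter windows of that length.

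In Cyp2c, 13 of 15 symbols were tested, 4 with less TPM in CRISPRi mice at an unadjusted p below 0.05, where 3.19% of all tested genes had less, and 1 with more, below the 10.1% of all genes. Cyp2c54, a target gene of the constitutive androstane receptor, had 3.63, 7.18 and 2.52 TPM in the CRISPRi mice, against 10.2, 24.2 and 20.7 TPM in the non-targeting mice. Cyp2c40, an arachidonic acid hydroxylase that is higher in female mice, had 5.04, 8.60 and 3.98 TPM in the CRISPRi mice, against 11.4, 22.5 and 25.4 TPM in the non-targeting mice. Cyp2c69, also female-biased, had 0.332, 1.14 and 0.695 TPM in the CRISPRi mice, against 1.28, 3.78 and 3.76 TPM in the non-targeting mice. It is 1 of the 4 counted above, but it reached the filter through the non-targeting group alone and so had to differ. In all 3 the groups were apart, with non-targeting mouse 1 the control nearest to the CRISPRi mice. Their log2 fold changes were -1.84 (SE 0.38, limma adjusted p = 0.259), -1.58 (SE 0.34, adjusted p = 0.269) and -1.14 (SE 0.32, adjusted p = 0.323), in that order, and without non-targeting mouse 1 they were -2.20, -1.92 and -1.50, with adjusted p of 0.0194, 0.0177 and 0.0174.

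Their close neighbours had smaller differences. Cyp2c68, next to Cyp2c40 on the chromosome, had 102, 108 and 136 TPM in the CRISPRi mice, against 77.3, 154 and 113 TPM in the non-targeting mice, at a log2 fold change of 0.05 (SE 0.25), which was -0.15 after median-of-ratios scaling. Cyp2c50, next to Cyp2c54, had 43.3, 60.2 and 47.7 TPM in the CRISPRi mice, against 63.6, 146 and 51.2 TPM in the non-targeting mice (log2 fold change -0.64, SE 0.36), with non-targeting mouse 2 far above the rest. Both overlapped between groups as deposited, but after median-of-ratios scaling Cyp2c50 was narrowly apart, its highest CRISPRi value at 55.4 and its lowest non-targeting value at 56.8 (log2 fold change -0.84, SE 0.40). The difference between neighbours was not tested. The windows before the starts of Cyp2c40, Cyp2c69 and Cyp2c68 are shown as examples of how alike the starts of these neighbours are. They are 80 bases long (RefSeq, GRCm38.p6, minus strand) at chr19:39812815-39812894, chr19:39886800-39886879 and chr19:39741134-39741213, and capitals mark the 5 positions that differ among the 3.
Cyp2c40: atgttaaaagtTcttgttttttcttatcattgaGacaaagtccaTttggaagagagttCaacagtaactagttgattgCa
Cyp2c69: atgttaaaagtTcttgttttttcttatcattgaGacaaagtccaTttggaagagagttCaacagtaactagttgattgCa
Cyp2c68: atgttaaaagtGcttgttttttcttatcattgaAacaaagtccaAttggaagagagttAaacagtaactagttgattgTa
The window was chosen on Cyp2c40, directly before its start, and placed in the others where it matched best. Cyp2c69 had 0 differences from Cyp2c40 in it, and Cyp2c68 had 5. Over the 300-base windows, with gap positions counted as differences, Cyp2c69 was 91.1% identical to Cyp2c68 and 80.9% to Cyp2c40, and Cyp2c40 75.2% to Cyp2c68. Cyp2c40 and Cyp2c69 differed there by 3 mismatches and 60 gap positions, and Cyp2c69 and Cyp2c68 by 19 mismatches and 8 gap positions. The order of these pairs thus depends on the gaps, and the block above begins at -80 from the start in Cyp2c40 and at -110 in Cyp2c69. The short window was not taken to stand for the whole promoter.

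**Figure D2:**
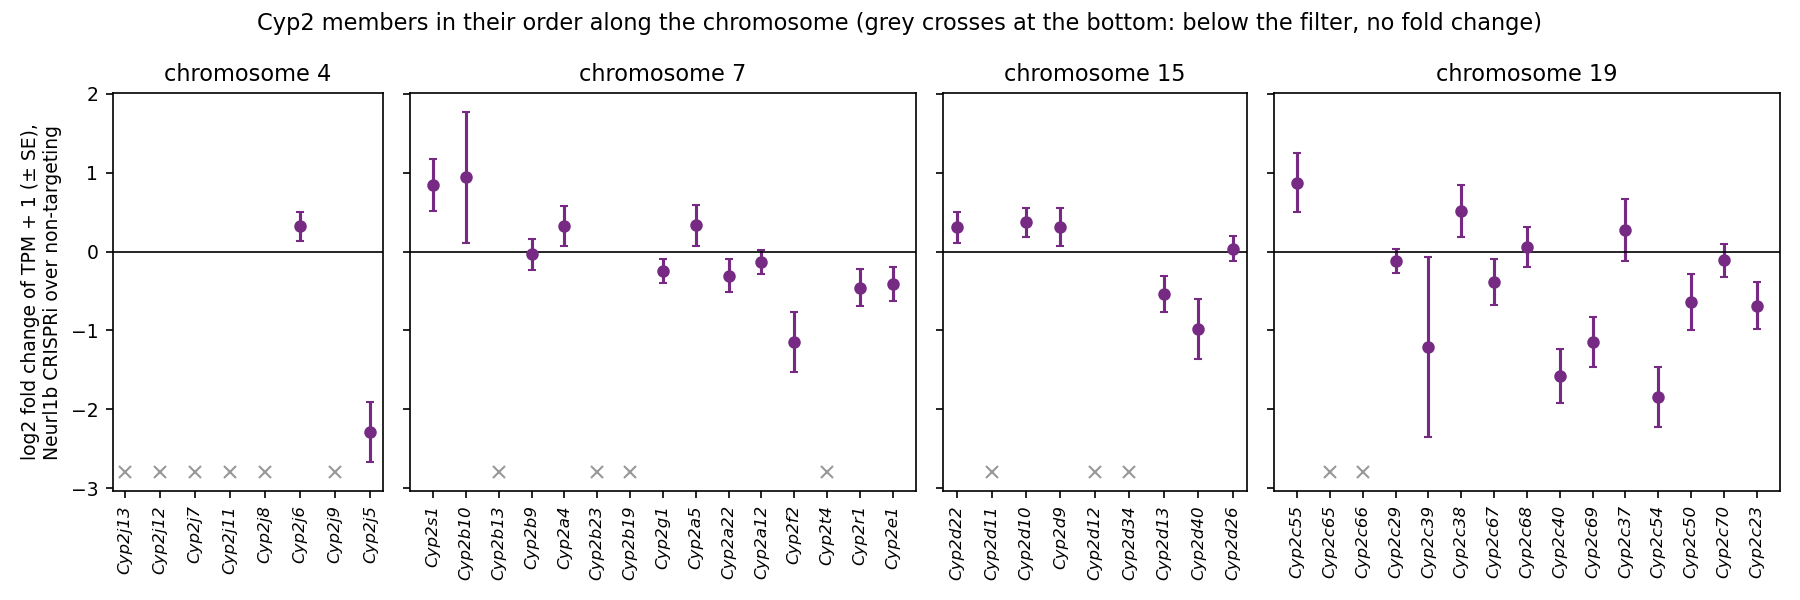
Log2 fold change of TPM + 1, Neurl1b CRISPRi over non-targeting, with its standard error, for members without the suffix -ps in their order along chromosomes 4, 7, 15 and 19 (RefSeq, GRCm38.p6). Grey crosses at the bottom are members below the filter. Within the cluster on chromosome 19, Cyp2c40 at -1.58, Cyp2c69 at -1.14 and Cyp2c54 at -1.84 lie below Cyp2c68 at 0.05.

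The abundant Cyp2c members made up most of the subfamily. Cyp2c29 had 324, 347 and 313 TPM in the CRISPRi mice, against 371, 395 and 307 TPM in the non-targeting mice. Cyp2c70, which makes the muricholic acids of mouse bile, had 272, 288 and 400.2 TPM in the CRISPRi mice, against 361, 393 and 279 TPM in the non-targeting mice. Both overlapped, at log2 fold changes of -0.12 and -0.11, but after median-of-ratios scaling Cyp2c29 was lower in every CRISPRi mouse (-0.32, SE 0.17). The subfamily sums overlapped, at 1019 ± 75 TPM in CRISPRi and 1167 ± 203 TPM in non-targeting mice. Cyp2c23, an epoxygenase and the last member in order along chromosome 19, had 29.1, 31.9 and 30.2 TPM in the CRISPRi mice, against 43.9, 82.3 and 33.7 TPM in the non-targeting mice, without overlap (log2 fold change -0.69, SE 0.30, limma adjusted p = 0.371). Cyp2c55, the first member without the suffix in that order, was the member with more TPM in CRISPRi mice: 40.6, 43.3 and 24.6 TPM, against 27.6, 9.80 and 23.9 TPM in the non-targeting mice (log2 fold change 0.87, SE 0.38, limma adjusted p = 0.373). Its groups overlapped, since CRISPRi mouse 3 lay below non-targeting mouse 1. Its unadjusted p was 0.0893 after median-of-ratios scaling. Cyp2c39, singled out after its values were seen, had 5.69, 4.40 and 3.83 TPM in the CRISPRi mice and 3.15 and 3.19 TPM in non-targeting mice 2 and 3, but 124 TPM in non-targeting mouse 1. Its coding sequence is 94.2% identical to that of its neighbour Cyp2c38, at 36.1 to 61.8 TPM in CRISPRi mice and 21.1 to 52.8 TPM in non-targeting mice.

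**Figure D3:**
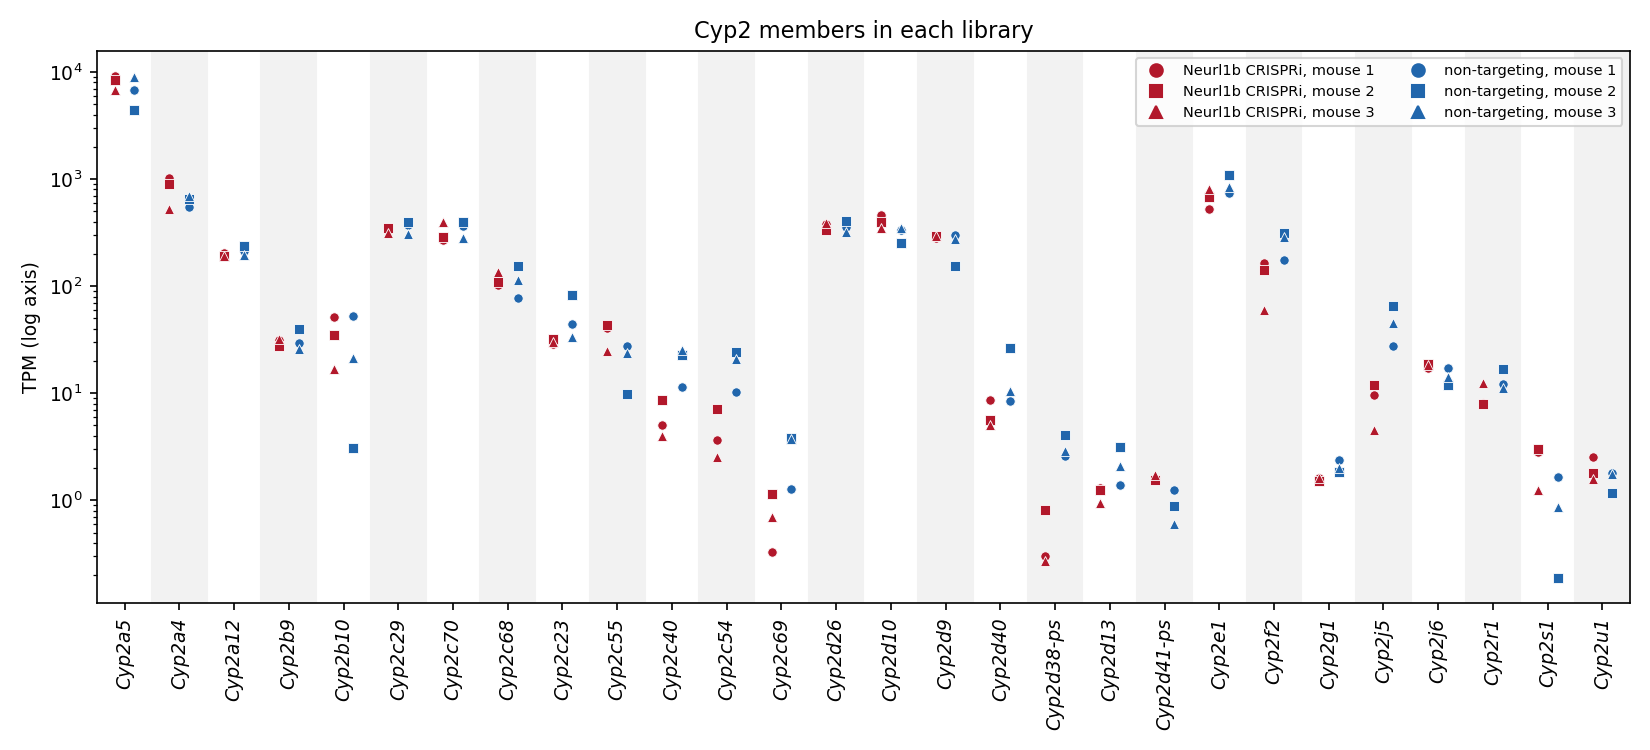
TPM on a log axis in each library for the 28 members named by rule, Neurl1b CRISPRi mice to the left of non-targeting mice within each gene and 1 symbol per mouse number. In Cyp2j5, Cyp2c40, Cyp2c54, Cyp2c69 and Cyp2f2 the CRISPRi points lie below all non-targeting points, and Cyp2b10 and Cyp2s1 spread most within the non-targeting group.

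Cyp2f2, a periportal member, and Cyp2e1, a pericentral one, both had lower means in CRISPRi mice, and for Cyp2f2 the groups were apart. Cyp2f2, a periportal gene whose enzyme activates naphthalene, had 166, 143 and 59.9 TPM in the CRISPRi mice, against 174, 311 and 289 TPM in the non-targeting mice. The gap between CRISPRi mouse 1 and non-targeting mouse 1 was small beside the spread of either group. The log2 fold change was -1.15 (SE 0.39, unadjusted p = 0.0168, limma adjusted p = 0.344), and -1.41 (adjusted p = 0.0602) with the first non-targeting mouse left out. Cyp2e1, the pericentral ethanol and paracetamol oxidase, had 523, 675 and 806 TPM in the CRISPRi mice, against 734, 1087 and 845 TPM in the non-targeting mice, with overlap (log2 fold change -0.41, SE 0.21, limma adjusted p = 0.407). Of the periportal list, 2 of 11 tested genes had less TPM in CRISPRi mice at an unadjusted p below 0.05 and 0 had more, where 3.19% and 10.1% of all tested genes did; the 2 were Cyp2f2 and the histidase gene Hal, at 101 ± 24 TPM in CRISPRi and 149 ± 15 TPM in non-targeting mice. Of 9 tested pericentral genes, 1 had less and 1 more: the glutamate transporter gene Slc1a2, at 2.85 ± 1.42 TPM in CRISPRi and 11.3 ± 9.4 TPM in non-targeting mice, and Gulo of ascorbate synthesis, at 179 ± 10 TPM in CRISPRi and 131 ± 32 TPM in non-targeting mice. With median-of-ratios scaling these counts were 5 lower of 11 periportal, and 2 lower and 0 higher of 9 pericentral genes, where 6.41% of all genes were lower and 6.77% higher. Cyp2f2 is itself 1 of the periportal genes counted, so those counts are not separate from its own difference. With lists this short, the pericentral counts say nothing about the list, and the periportal counts say little. After median-of-ratios scaling both sums were lower in every CRISPRi mouse. The periportal sum was 1588 to 2281 in CRISPRi and 2369 to 2904 in non-targeting mice. The pericentral sum was 1607 to 2098 in CRISPRi and 2101 to 2161 in non-targeting mice.

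In Cyp2a no member reached an unadjusted p of 0.05. Cyp2a5 had 9209, 8428 and 6834 TPM in the CRISPRi mice, against 6726, 4416 and 8938 TPM in the non-targeting mice. Cyp2a4, a steroid hydroxylase that is higher in females, had 1028, 902 and 523 TPM in the CRISPRi mice, against 545, 649 and 696 TPM in the non-targeting mice. Both overlapped, at log2 fold changes of 0.33 (SE 0.26 for Cyp2a5 and 0.25 for Cyp2a4). Cyp2a12 had 204, 192 and 190.1 TPM in the CRISPRi mice, against 211, 238 and 196 TPM in the non-targeting mice (log2 fold change -0.13), overlapping as deposited but lower in every CRISPRi mouse after median-of-ratios scaling (-0.33). The fourth member, Cyp2a22, stayed between 3.69 and 6.81 TPM over all libraries. In Cyp2b, Cyp2b10, the phenobarbital-inducible member, had 51.9, 35.1 and 17.0 TPM in the CRISPRi mice, against 52.9, 3.05 and 21.2 TPM in the non-targeting mice. Its log2 fold change of 0.94 (SE 0.83) rested on non-targeting mouse 2 and was -0.09 without it. Cyp2b9 had 31.3, 27.6 and 32.3 TPM in the CRISPRi mice, against 29.5, 39.5 and 25.7 TPM in the non-targeting mice, and the other 3 Cyp2b symbols were below the filter, led by Cyp2b13 at 0.822 to 1.26 TPM in CRISPRi and 0.367 to 1.37 TPM in non-targeting mice.

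In Cyp2d the summed TPM was higher in every CRISPRi mouse, 1228, 1115 and 1110 TPM against 1084, 901 and 1014 TPM in the non-targeting mice, but the log2 ratio of the means, 0.20, came to about 0 (-0.00038) with median-of-ratios scaling. Among its tested members Cyp2d10 alone was higher in every CRISPRi mouse. Cyp2d10 had 466, 394 and 349 TPM in the CRISPRi mice, against 332, 255 and 347 TPM in the non-targeting mice, without overlap (log2 fold change 0.37, SE 0.18, limma adjusted p = 0.399), though with overlap after median-of-ratios scaling. Cyp2d9, a male-biased steroid hydroxylase, had 284, 296 and 293 TPM in the CRISPRi mice, against 301, 155 and 275 TPM in the non-targeting mice. Cyp2d26 had 383, 333 and 391 TPM in the CRISPRi mice, against 359, 409 and 317 TPM in the non-targeting mice. The last pair overlapped, at log2 fold changes of 0.31 and 0.03, that of Cyp2d26 being -0.17 after median-of-ratios scaling. Cyp2d40 and Cyp2d13, at low levels, had less TPM in CRISPRi mice. Cyp2d40 had 8.65, 5.64 and 5.10 TPM in the CRISPRi mice, against 8.51, 26.3 and 10.6 TPM in the non-targeting mice (log2 fold change -0.98, SE 0.38, limma adjusted p = 0.351), with CRISPRi mouse 1 just above non-targeting mouse 1. Cyp2d13, which RefSeq types as a transcribed pseudogene, had 1.30, 1.23 and 0.941 TPM in the CRISPRi mice, against 1.39, 3.13 and 2.10 TPM in the non-targeting mice (log2 fold change -0.54, SE 0.22, limma adjusted p = 0.364). Its groups were narrowly apart, and without non-targeting mouse 1 its adjusted p was 0.0348.

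**Figure D4:**
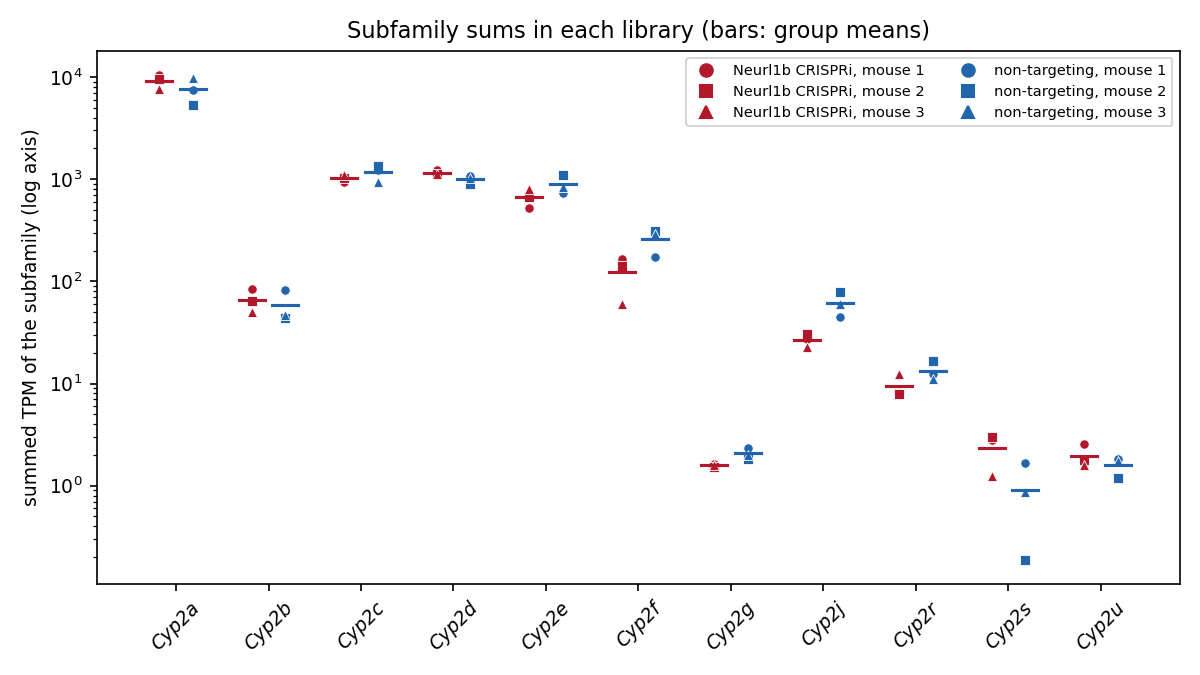
Summed TPM on a log axis of the members without the suffix -ps, by subfamily and library, with bars at the group means and Neurl1b CRISPRi mice left of non-targeting mice. The groups are apart in Cyp2d, where CRISPRi sums are higher (1151 against 999.6 TPM on average), and in Cyp2f, Cyp2g and Cyp2j, where they are lower, and they overlap in the other 7 subfamilies drawn.

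The single-gene subfamilies other than Cyp2e and Cyp2f were low. Cyp2r1, a vitamin D hydroxylase, had 8.04, 7.98 and 12.5 TPM in the CRISPRi mice, against 12.3, 16.7 and 11.1 TPM in the non-targeting mice, with overlap (log2 fold change -0.46, SE 0.23), and -0.65 after median-of-ratios scaling. Cyp2s1, known for its induction by dioxin, had 2.80, 2.98 and 1.25 TPM in the CRISPRi mice, against 1.66, 0.188 and 0.859 TPM in the non-targeting mice (log2 fold change 0.84, SE 0.33, limma adjusted p = 0.351). It was the second member with more TPM at an unadjusted p below 0.05, but CRISPRi mouse 3 lay within the control range. Cyp2g1 had 1.62, 1.52 and 1.61 TPM in the CRISPRi mice, against 2.36, 1.84 and 2.02 TPM in the non-targeting mice, lower without overlap (log2 fold change -0.25, SE 0.16, and -0.38 after median-of-ratios scaling). Cyp2u1, a fatty acid hydroxylase, had 2.53, 1.79 and 1.59 TPM in the CRISPRi mice, against 1.81, 1.18 and 1.75 TPM in the non-targeting mice, with overlap. Cyp2ab1 and Cyp2t4 were below the filter, at most 0.0676 and 0.184 TPM in any library.

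Of the 23 symbols with the suffix -ps, 3 were tested, 8 were below the filter and 12 were listed at 0. They made up at most 0.0815% of the family's TPM. Cyp2d38-ps had 0.302, 0.807 and 0.268 TPM in the CRISPRi mice, against 2.59, 4.07 and 2.90 TPM in the non-targeting mice. The 31-base words were examined in 1 of its 3 transcripts, with 33.6% of its TPM, and all were distinguishing there. Its groups were apart, but it reached the filter through the non-targeting group alone and so had to differ, at a log2 fold change of -1.52 (SE 0.21, limma adjusted p = 0.157, and 0.0173 without non-targeting mouse 1). Cyp2d41-ps had 1.57, 1.54 and 1.71 TPM in the CRISPRi mice, against 1.25, 0.883 and 0.599 TPM in the non-targeting mice (log2 fold change 0.46, SE 0.18, limma adjusted p = 0.350), and reached the filter through the CRISPRi group alone. The third, Cyp2a21-ps, stayed between 0.775 and 2.06 TPM. Pseudogenes can take reads of their parent genes, so these values are uncertain.

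Without non-targeting mouse 1, 6 of the 33 members passed an adjusted p of 0.05 in limma. Those with less TPM in CRISPRi mice were Cyp2j5, Cyp2c54, Cyp2c40, Cyp2c69 and Cyp2d13, 5 of 33 where 2.24% of all genes passed in that direction. Of these, Cyp2c69 reached the filter through the non-targeting group alone and so had to differ. The member with more was Cyp2j6, 1 of 33 where 23.1% of all genes passed. With median-of-ratios scaling as well, the same 5 members passed with less TPM, where 2.65% of all genes did, and 0 with more, where 1.95% did. At an unadjusted p below 0.05, 17 of the 33 then had less TPM, where 15.5% of all genes did, and 1 had more, where 14.8% did. The controls are then 2 mice, and the scaled alternative was added after the data were seen.

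The transcript models bear on the abundant members. In Cyp2e1 the longest annotated coding transcript held 64.4%, 59.1% and 59.2% of the gene's TPM in the CRISPRi mice, against 66.9%, 42.7% and 30.6% in the non-targeting mice. In Cyp2d26 it held 96.0%, 94.6% and 88.6% in the CRISPRi mice, against 97.1%, 76.6% and 49.8% in the non-targeting mice. In Cyp2a5 it held 53.3%, 49.5% and 50.8% in the CRISPRi mice, against 54.2%, 38.7% and 33.6% in the non-targeting mice, most of the rest lying on a 442-nucleotide model with no annotated start. Non-targeting mice 2 and 3 thus placed less on the longest transcript of these 3 genes than any other library, and over the whole library their mean transcript length weighted by TPM was 1144 and 1059 nucleotides, against 1191 to 1199 in the CRISPRi mice and 1229 in non-targeting mouse 1. Counted on the longest transcript alone, Cyp2e1 had 337, 399 and 477 TPM in the CRISPRi mice, against 491, 464 and 259 TPM in the non-targeting mice, a log2 fold change of 0.04 in place of -0.41. Counted likewise, that of Cyp2a5 was 0.64 in place of 0.33, and that of Cyp2d26 was 0.41 in place of 0.03. Cyp2c70 went the other way, with its highest share in non-targeting mouse 3, 94.2%, and its lowest in non-targeting mouse 1, 87.6%. Cyp2c40, Cyp2c69 and Cyp2f2 were apart on their longest transcripts too, at log2 fold changes of -1.85, -1.08 and -1.16. Those transcripts held 94.8%, 81.2% and 99.4% of the gene's mean TPM, so this adds little to the sums. Cyp2j5 and Cyp2c54 have 1 transcript each, so theirs, -2.29 and -1.84, are the summed values again. The part of transcript models in the other results was not tested.

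**Figure D5:**
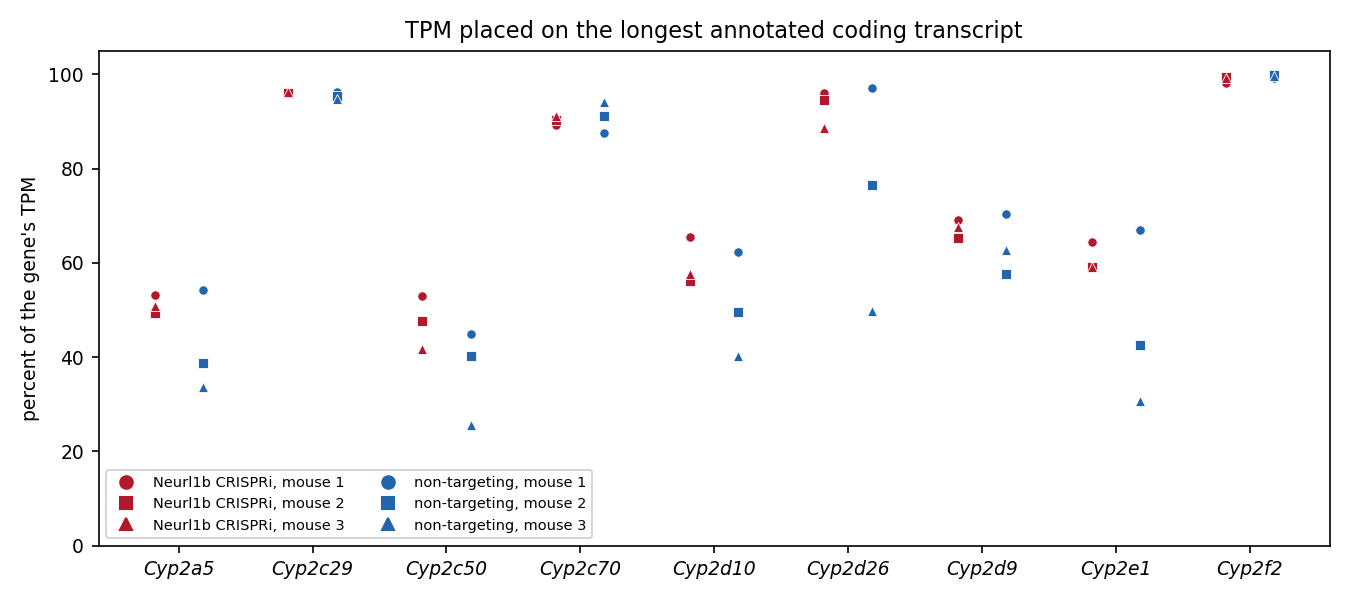
Percent of a gene's TPM placed on its longest annotated coding transcript in each library, for 9 members chosen after their values were seen, with Neurl1b CRISPRi mice left of non-targeting mice. Non-targeting mice 2 and 3 are lowest in 7 of the 9, down to 30.6% in Cyp2e1 and 25.6% in Cyp2c50 but only to 94.8% in Cyp2c29, and not in Cyp2c70 or Cyp2f2.

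Genes that act with or upon the family were counted next. Of 16 tested genes that pass electrons to cytochromes P450 or make and break haem, 5 had more TPM in CRISPRi mice at an unadjusted p below 0.05 and 0 had less, where 10.1% and 3.19% of all tested genes did. With median-of-ratios scaling 2 had more and 1 less, where 6.77% and 6.41% of all genes did. Among them Hmox1, the inducible haem oxygenase, had 154, 154 and 121 TPM in the CRISPRi mice, against 125, 13.5 and 31.6 TPM in the non-targeting mice (log2 fold change 1.87, SE 0.65, limma adjusted p = 0.344), with overlap through non-targeting mouse 1. Blvrb, a biliverdin reductase, averaged 1054 ± 182 TPM in CRISPRi and 578 ± 228 TPM in non-targeting mice. Of 27 regulators of Cyp2 genes, 2 had less and 1 more, and 3 less and 0 more after scaling, against the same shares over all genes, so the counts are no result about the regulators. Onecut1, a liver transcription factor, had 0.677, 0.659 and 0.524 TPM in the CRISPRi mice, against 0.981, 2.08 and 1.99 TPM in the non-targeting mice (log2 fold change -0.70, SE 0.20, limma adjusted p = 0.323). Ghr, the growth hormone receptor, averaged 53.7 ± 4.5 TPM in CRISPRi and 81.3 ± 25.2 TPM in non-targeting mice. Both lay lower in every CRISPRi mouse, but Onecut1 reached the filter through the non-targeting group alone and so had to differ. Nfe2l2, the regulator of the oxidative stress response, averaged 42.0 ± 4.4 TPM in CRISPRi and 27.6 ± 9.6 TPM in non-targeting mice.

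The female-biased Cyp2 list had 2 of 5 tested members with less TPM at an unadjusted p below 0.05, Cyp2c40 and Cyp2c69, and 0 with more, beside 3.19% and 10.1% of all tested genes. Of the 2, Cyp2c69 reached the filter through the non-targeting group alone and so had to differ. After median-of-ratios scaling 3 had less, with Cyp2g1 at an unadjusted p of 0.0149 in limma, and 0 more, beside 6.41% and 6.77%. The male-biased list, Cyp2d9 and Cyp2u1, had 0 of 2 under both. In the list of constitutive androstane receptor targets, 1 of 6 had less (Cyp2c54) and 1 more (Cyp2c55), and 1 less and 0 more after scaling. The Y-linked genes Ddx3y and Eif2s3y were at 11.3 TPM or more in every library, so every library held RNA of a male. Hepatocyte markers were the most abundant of the marker lists, at sums of 23539 to 30663 TPM in CRISPRi and 26277 to 56368 TPM in non-targeting mice. Of these 6, 1 had less TPM at an unadjusted p below 0.05 and 0 more, also after scaling. Over all tested genes the shares were 3.19% and 10.1%, and 6.41% and 6.77% after scaling. The gene with less was Ttr, the transthyretin gene, which averaged 6248 ± 1227 TPM in CRISPRi and 9019 ± 2029.7 TPM in non-targeting mice. The median log2 fold change of the 6 was -0.20, and -0.41 after scaling. Markers of other cells moved with the groups in part. The 6 stellate cell markers summed to 26.8 to 39.2 TPM in CRISPRi and 10.6 to 24.1 TPM in non-targeting mice, with 3 of 5 tested higher at an unadjusted p below 0.05. Of these 3, Lrat reached the filter through the CRISPRi group alone and so had to differ. The 6 Kupffer cell and macrophage markers summed to 54.2 to 73.5 TPM in CRISPRi and 35.2 to 57.5 TPM in non-targeting mice, with 3 of 5 higher. Over all tested genes 10.1% were higher. After median-of-ratios scaling, 2 stellate and 1 Kupffer cell marker were higher at that threshold, where 6.77% of all genes were. In the endothelial list 1 marker was then lower, and in the cholangiocyte list 1 was lower and 1 higher, where 6.41% of all genes were lower. Of the other lists, endothelial markers summed to 14.9 to 21.4 TPM in CRISPRi and 14.6 to 20.3 TPM in non-targeting mice (0 of 3 at that threshold), and cholangiocyte markers to 15.9 to 23.8 TPM in CRISPRi and 13.3 to 25.7 TPM in non-targeting mice (1 of 3 higher). Leukocyte markers summed to 14.4 to 24.5 TPM in CRISPRi and 11.3 to 16.6 TPM in non-targeting mice (0 of 1), and haemoglobin genes to 485 to 1563 TPM in CRISPRi and 933 to 3862 TPM in non-targeting mice (0 of 4). The stellate sums were apart as deposited but overlapped after median-of-ratios scaling, as did those of the other 5 lists of other cells under both. The leukocyte genes Ptprc, Cd3e and Cd79a and the bile duct gene Krt7 were below 1 TPM in every library. The part of these markers in the Cyp2 differences was not tested.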

How the data were processed

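Ribosome-bound poly(A) RNA was measured by translating ribosome affinity purification (TRAP-seq) in 6 livers. The deposited values are TPM per transcript in 1 table, made with kallisto on build mm39 per the submitters' processing notes. The sources used here state neither its version nor the transcript set. Each library sums to 1000000 within rounding, so TPM keep no depth, and the precision of low values is unknown. kallisto divides reads among similar transcripts by estimation, which limits values of near-identical paralogs.

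Transcripts were summed per symbol (168 without one were left out). Genes with a mean of at least 1 TPM entered a fit of limma 3.58.1 (R 4.3.3) to log2(TPM + 1) (trended prior, two-sided, no covariate), with Benjamini-Hochberg adjustment over all 10598 genes; fold changes on this scale understate those of low genes. Standard errors are those of limma. Subfamily sums, medians and lists carry no test. Members with an unadjusted p below 0.05, the 3 most abundant of each subfamily (mean of at least 1 TPM) and up to 4 genes per list were named. The members, lists and rules were chosen with earlier results of these data known. Mouse numbers name separate animals, so the main fit has no block. Alternatives were other pseudocounts (0.1 and 5), no filter or 5 TPM, median-of-ratios scaling, a constant prior, a replicate block, single transcripts and each mouse left out. Added after seeing the data were the longest coding transcript alone, sums without 1 gene, and scaling with non-targeting mouse 1 left out. Promoter windows and gene order are from RefSeq (GRCm38.p6), for which 41 of 50 members without the suffix -ps matched a promoter, and coding sequences from GENCODE vM21 (GRCm38). Both are of another build than mm39, so no gene coordinates are given beside those windows.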

Additional observations from a re-analysis of the deposited data

How the results depend on the processing

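No Cyp2 member passed an adjusted p of 0.05 in limma under any alternative that kept non-targeting mouse 1. Leaving out each mouse in turn gave 0 to 2673 genes past the threshold over the whole table and 0 to 6 members, 5 to 8 members with less TPM and 0 to 6 with more at an unadjusted p below 0.05, and a median log2 fold change of the members between -0.20 and -0.058. The whole-table count was 0 with a pseudocount of 5, without the filter and for single transcripts, 1 at 5 TPM, and 486 with non-targeting mouse 1 left out under median-of-ratios scaling; there 5 members passed, 17 had less TPM (where 15.5% of all genes did) and 1 more (14.8%) at an unadjusted p below 0.05, and the median was -0.40. Members with more TPM numbered 1 at a pseudocount of 0.1, with median-of-ratios scaling and for single transcripts, and 0 without the filter and at 5 TPM. The median was 0.0040 without the filter and -0.32 with median-of-ratios scaling. The replicate block gave 2 genes and 0 members past the threshold, and 9 members with less TPM; the mouse numbers did not pair the samples (correlations of deviations 0.06, -0.10 and -0.28).

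Subfamily sums, as log2 ratios, shifted by more than the spread between mice as follows. With median-of-ratios scaling they were -0.40 in Cyp2c, -0.00038 in Cyp2d and -0.58 in Cyp2g. With non-targeting mouse 1 also left out they were -0.50 in Cyp2c, -0.070 in Cyp2d, -0.86 in Cyp2e, -0.62 in Cyp2g, -1.69 in Cyp2j, -0.88 in Cyp2r and -0.19 over all members. On the longest coding transcript they were 0.37 in Cyp2d, -0.00024 in Cyp2e and -0.54 in Cyp2g, and Cyp2s, listed at 0 there in the controls, has no value. Without Cyp2j5 the Cyp2j ratio was 0.31. The cause was not tested.

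Of 410 alternative values for the 28 named members, 383 kept direction and call, 14 became calls, each without non-targeting mouse 1, and 13 changed sign. These were Cyp2a4 (-0.11 scaled without non-targeting mouse 1), Cyp2b10 (-0.087 without non-targeting mouse 2, with up to 1.78 when any other mouse was left out) and Cyp2b9 (0.032 without CRISPRi mouse 2, 0.13 without non-targeting mouse 2). Cyp2c68 was -0.15 scaled, -0.071 without CRISPRi mouse 3, -0.20 without non-targeting mouse 1 and -0.53 scaled without it; it kept its sign at up to 0.29 when another mouse was left out. Cyp2d26 was -0.17 scaled, -0.011 without CRISPRi mouse 3, -0.056 without non-targeting mouse 3, and -0.30 scaled without non-targeting mouse 1. Cyp2e1 was 0.041 on its longest transcript. Part of the 383 could not change direction. A constant prior and the replicate block leave the log2 fold change as it is, and so does the longest transcript of a member with 1 transcript. No named member passed in the main fit, so a kept call is one that stayed above the threshold. TPM keep no depth, so what depth limits is unknown; 14 members below the filter were not tested.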
